A study of Homo sapiens with 11 samples.

Results

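The genes described here are NFE2L2, which encodes the transcription factor NRF2, its inhibitor KEAP1, and 8 antioxidant genes that NRF2 activates: NQO1, GCLM, GCLC, TXNRD1, SRXN1, SLC7A11, OSGIN1 and PRDX1. They were taken by gene symbol from a count table of 57736 gene IDs, and all 10 passed the low-count filter with 13980 genes in all. RNA-seq was run on HEC50B, a human endometrial cancer cell line whose parental form carries the R183W change in PPP2R1A, which encodes the PP2A scaffold. The 4 groups were R183W cells with WM1119 (2 libraries), R183W cells with vehicle (3), WT cells with WM1119 (3) and WT cells with vehicle (3). WM1119, an inhibitor of the acetyltransferase KAT6A, was given at 50 µM, and both treatments lasted 4 days. WT names a derivative labelled as corrected by CRISPR, and whether it is a single clone is not given in the labels. Genotype thus goes with cell line throughout. An effect of the R183W change cannot be told apart from other differences between the parental and corrected cells.

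KEAP1 is the adaptor that brings NRF2 to a CUL3 ubiquitin ligase, so that NRF2 is made and destroyed continuously. Oxidants and electrophiles modify cysteines of KEAP1, NRF2 then escapes, enters the nucleus and, with a small MAF protein, binds antioxidant response elements near its targets. Because this control acts on the protein, the NFE2L2 transcript need not follow NRF2 activity, and counts of RNA do not show it.

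Levels are given as CPM, the counts of a gene scaled to the size of its library over the tested genes with TMM factors. Library totals ran from 2609922 to 6065149 counts. WT WM1119 library 3 was the shallowest and stood apart from its group, with log CPM correlations across genes of 0.901 and 0.922 to the other members, against 0.944 to 0.963 for the remaining replicate pairs. In bulk RNA, fewer cells of a type and less RNA per cell cannot be told apart. Values without it are given beside several results. The epithelial markers EPCAM, KRT8 and KRT18 and the endometrial epithelial factors PAX8 and FOXA2 were present in every library. KRT19, CDH1 and ESR1 had at most 2, 8 and 3 counts in any group, and SOX17 and HAND2 had 0. Under vehicle, FOXA2 (log2 1.825, edgeR adjusted p = 3.05e-06), KRT8 (0.64, 0.0024) and KRT18 (0.73, 0.00353) were higher in R183W than in WT cells. EPCAM was lower there (-0.64, 0.00936) and rose with WM1119 in R183W cells (1.07, 0.00162). Of 5 immune markers, only CD68 passed the filter, and their summed level was 3.62 to 5.52 CPM in R183W WM1119, 3.65 to 8.42 in R183W vehicle, 2.57 to 8.67 in WT WM1119 and 4.70 to 11.2 in WT vehicle libraries. Of the endothelial markers, CDH5 and KDR were at 0 throughout, and VWF had 7 counts in R183W vehicle libraries and 0 in the other groups. Of 5 fibroblast markers, COL3A1 and DCN were at 0, and COL1A2 and LUM had at most 4 and 61 counts in any group. LUM passed the filter and was called in no comparison. The summed level was nearly all COL1A1: 565 to 568 CPM in R183W WM1119, 726 to 929 in R183W vehicle, 820 to 865 in WT WM1119 and 584 to 661 in WT vehicle libraries. With WM1119, COL1A1 fell in R183W cells (log2 -0.56, adjusted p = 0.0241 in edgeR) and rose in WT cells (0.46, 0.0354). The difference between these effects was called (-1.02, 0.0252). It was higher in R183W than in WT cells under vehicle (0.44, 0.0205) and lower with WM1119 (-0.58, 0.0132). The part of these marker differences in the results below was not tested.

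**Figure D1:**
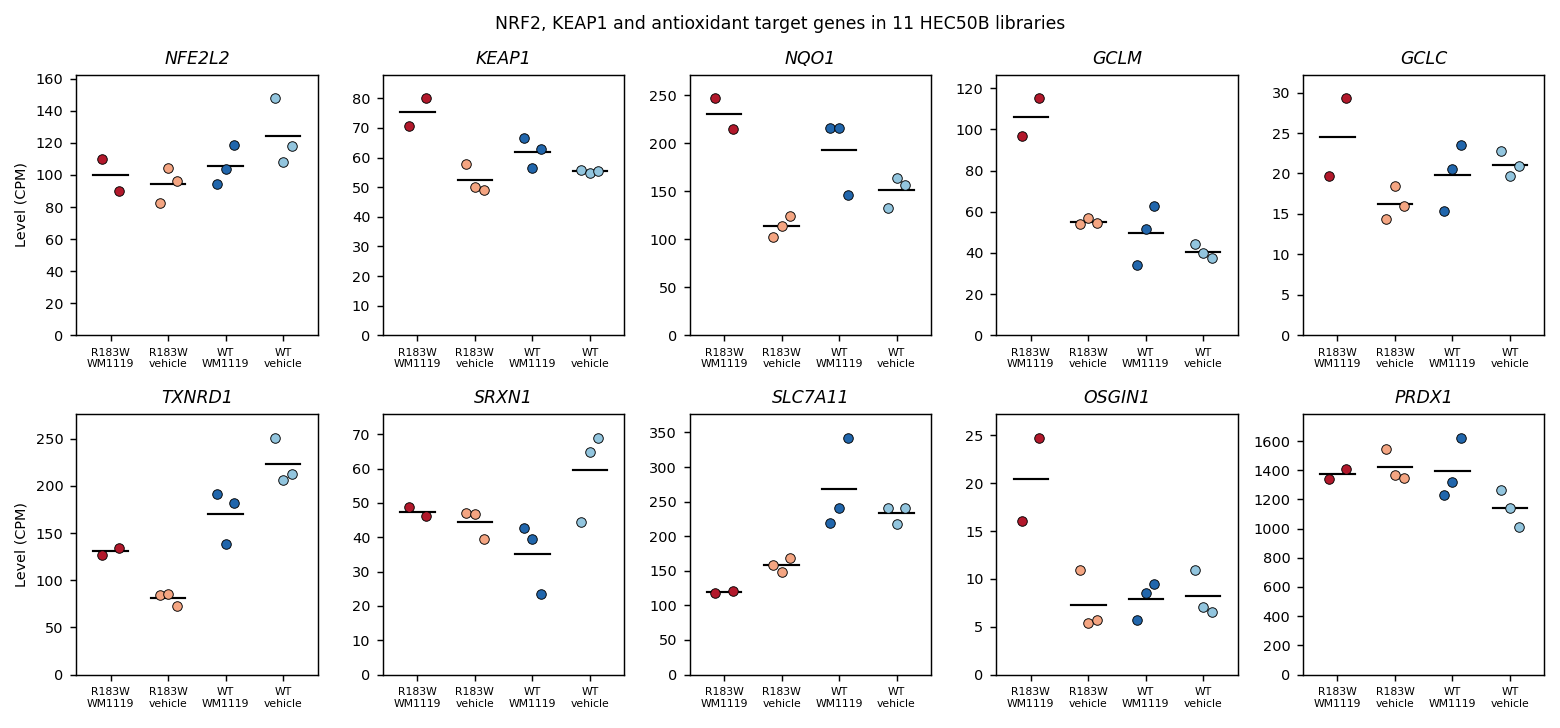
Level of each of the 10 genes (CPM, linear axes from 0) in the 11 libraries, as points by group, with the group mean as a line. TXNRD1 has the 4 groups apart from each other, and NQO1, GCLM and OSGIN1 stand higher in both R183W WM1119 libraries than in any R183W vehicle library.

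The first comparison asked what the inhibitor did in cells with mutant PP2A scaffold. With WM1119, R183W cells raised 4 of the 10 genes: NQO1, GCLM, TXNRD1 and OSGIN1, and none fell. Over all genes tested, 4.64% were called in this comparison, 1.99% as higher and 2.65% as lower, at an edgeR adjusted p under 0.05. Both treated libraries were above all vehicle libraries for 6 of the 10 genes and below them for 1, where 23.2% and 23.6% of all genes were so placed, 46.8% together. The median log2 change of the 10 genes was 0.56, against -0.0011 over all genes tested, and 8 of the 10 changes were positive.

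NFE2L2 stood at 109.9 and 90.0 CPM in R183W cells with WM1119, against 82.8, 104.2 and 96.5 CPM with vehicle. The groups overlapped, and the log2 change was 0.08 (SE 0.18, adjusted p = 0.844 in edgeR), with a 95% interval of -0.26 to 0.43. KEAP1 stood at 70.8 and 80.0 CPM with WM1119, against 57.8, 50.1 and 49.1 CPM with vehicle. Both treated libraries lay above all 3 vehicle libraries, and the log2 change of 0.53 (SE 0.15) missed the threshold at an edgeR adjusted p of 0.0616. It passed at 0.0293 without WT WM1119 library 3, at 0.0308 with DESeq2 and at 0.0141 in a fit of these 2 groups alone. Of the 11 fits that each left out 1 library, it missed the threshold in 10, with 0.197 in edgeR without R183W vehicle library 2 or 3. KEAP1 is itself a target of NRF2 in human cells.

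NQO1, the quinone reductase often used as a readout of NRF2, stood at 246.9 and 214.4 CPM in R183W cells with WM1119, against 102.6, 114.1 and 124.3 CPM with vehicle. Every treated library was above every vehicle library, and the change was 2.03-fold (log2 1.02, SE 0.18, adjusted p = 0.00513 in edgeR). The call was lost without R183W WM1119 library 1 (adjusted p = 0.103) and held when any of the other 10 libraries was left out.

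The glutathione branch followed in part. GCLM, the modifier subunit of glutamate-cysteine ligase, which makes the first step of glutathione synthesis, stood at 96.7 and 115.1 CPM with WM1119, against 54.1, 56.7 and 54.3 CPM with vehicle, a 1.92-fold rise (log2 0.94, SE 0.20, adjusted p = 0.0185 in edgeR). GCLC, the catalytic subunit of the same enzyme, stood at 19.7 and 29.3 CPM against 14.4, 18.4 and 16.0 CPM, without overlap. Its log2 change of 0.59 (SE 0.24) did not pass (adjusted p = 0.196 in edgeR), and the treated libraries differed from each other more than the vehicle libraries did. SLC7A11, the cystine importer that feeds glutathione synthesis and also responds to ATF4, went the other way. It stood at 118.3 and 120.8 CPM with WM1119, against 158.2, 148.5 and 167.9 CPM with vehicle, all below the vehicle libraries. That log2 change of -0.40 (SE 0.17) did not pass at an edgeR adjusted p of 0.217, and did pass without WT WM1119 library 3 (0.0229) and in a fit of these 2 groups alone (0.0205). Of the 11 fits that each left out 1 library, it missed the threshold in 10, with 0.426 in edgeR without R183W vehicle library 3.

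In the thioredoxin branch, TXNRD1, the cytosolic thioredoxin reductase, stood at 127.2 and 134.4 CPM in R183W cells with WM1119, against 84.3, 85.0 and 73.0 CPM with vehicle. The groups were well apart, with a 1.62-fold rise (log2 0.69, SE 0.16, adjusted p = 0.0253 in edgeR). SRXN1, sulfiredoxin, which repairs over-oxidized peroxiredoxins, stood at 48.7 and 46.2 CPM against 47.2, 46.7 and 39.5 CPM, a log2 change of 0.09 (SE 0.24, adjusted p = 0.872 in edgeR). PRDX1, a peroxide-reducing peroxiredoxin, stood at 1341 and 1410 CPM against 1544, 1368 and 1350 CPM, a log2 change of -0.05 (SE 0.14, adjusted p = 0.895 in edgeR), with a 95% interval of -0.33 to 0.23. Both overlapped between treatments. PRDX1 has a processed pseudogene, so its reads may be shared out.

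OSGIN1, an oxidative stress-induced growth inhibitor, had the largest log2 change of the 10, at a low level. It stood at 16.1 and 24.8 CPM with WM1119, from 67 and 82 counts, against 10.9, 5.35 and 5.68 CPM with vehicle, from 66, 25 and 28 counts. Both treated libraries were above all vehicle libraries, and the rise was 2.75-fold (log2 1.46, SE 0.37, adjusted p = 0.0371 in edgeR). R183W vehicle library 1, the deepest, lay apart from the other vehicle libraries.

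The calls for GCLM and TXNRD1 were lost when any R183W library was left out, at adjusted p = 0.0583 in edgeR to 0.206 for GCLM and 0.0619 to 0.224 for TXNRD1. That for OSGIN1 was lost when R183W WM1119 library 1 (0.0995) or 2 (0.349) was left out, and also for R183W vehicle library 2 (0.146) and 3 (0.144), WT WM1119 library 2 (0.0555) and WT vehicle library 2 (0.0575). The count of 4 became 2 without R183W vehicle library 1, 1 when R183W WM1119 library 2 or either of R183W vehicle libraries 2 and 3 was left out, and 0 by edgeR without R183W WM1119 library 1, where 6 genes had an unadjusted p under 0.05. Without WT WM1119 library 3 it was 6, with KEAP1 higher and SLC7A11 lower added. Calls over all genes also rose in that fit, to 1600 of 13897 genes, against 649 of 13980 with all libraries.

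**Figure D2:**
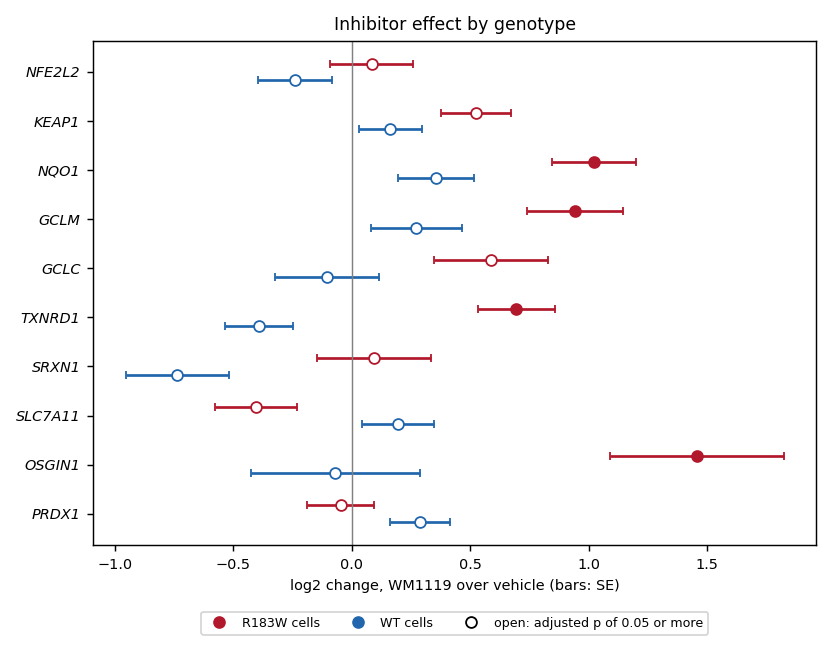
Log2 change with WM1119 over vehicle for each of the 10 genes, with SE, in R183W cells (upper point of each pair) and in WT cells (lower point). Filled points were called at an edgeR adjusted p under 0.05: NQO1, GCLM, TXNRD1 and OSGIN1 in R183W cells and none in WT cells.

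The DNA just before the start sites was searched for the core of the antioxidant response element, and the windows of the 4 genes called higher with WM1119 in R183W cells are shown, with that of KEAP1, which was not called. RefSeq promoter windows (GRCh38.p14) were found for 8 of the 10 genes, in 11 windows, of which the 250 bases before the start were used. TGACNNNGC and TGAGNNNGC are the usual forms of the core, and TGACTCA is an AP-1 site that can overlap it; both strands were read. Capitals mark a match to any of the 3.
GCLM, chr1:93909431-93909680, minus strand: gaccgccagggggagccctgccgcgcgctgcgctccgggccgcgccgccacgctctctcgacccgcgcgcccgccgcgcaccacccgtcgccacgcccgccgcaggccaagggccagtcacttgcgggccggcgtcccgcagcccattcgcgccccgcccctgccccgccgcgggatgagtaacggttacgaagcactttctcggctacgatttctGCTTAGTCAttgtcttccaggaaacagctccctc
TXNRD1, upstream start, chr12:104215529-104215778, plus strand: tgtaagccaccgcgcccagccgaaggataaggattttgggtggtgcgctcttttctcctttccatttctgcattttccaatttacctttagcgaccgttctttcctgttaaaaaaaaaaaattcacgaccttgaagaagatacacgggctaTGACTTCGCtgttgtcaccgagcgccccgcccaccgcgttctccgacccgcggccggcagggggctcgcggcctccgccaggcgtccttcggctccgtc
TXNRD1, downstream start, chr12:104286782-104287031, plus strand: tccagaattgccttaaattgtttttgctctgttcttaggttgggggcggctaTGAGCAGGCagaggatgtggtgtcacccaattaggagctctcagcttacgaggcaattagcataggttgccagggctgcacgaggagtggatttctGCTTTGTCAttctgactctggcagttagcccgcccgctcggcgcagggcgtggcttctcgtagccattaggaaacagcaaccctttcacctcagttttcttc
OSGIN1, chr16:83952990-83953239, plus strand: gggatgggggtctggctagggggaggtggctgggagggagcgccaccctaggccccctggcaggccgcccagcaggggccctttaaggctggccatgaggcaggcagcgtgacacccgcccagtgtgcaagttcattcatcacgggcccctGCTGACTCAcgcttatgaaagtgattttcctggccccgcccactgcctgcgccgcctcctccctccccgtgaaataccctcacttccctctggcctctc
NQO1, chr16:69726561-69726810, minus strand: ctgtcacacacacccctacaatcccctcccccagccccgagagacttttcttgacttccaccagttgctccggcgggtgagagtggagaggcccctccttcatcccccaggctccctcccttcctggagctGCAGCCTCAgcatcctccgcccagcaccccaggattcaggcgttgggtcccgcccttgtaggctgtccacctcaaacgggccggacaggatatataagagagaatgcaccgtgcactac
KEAP1, 1 of its 2 starts, chr19:10502772-10503021, minus strand: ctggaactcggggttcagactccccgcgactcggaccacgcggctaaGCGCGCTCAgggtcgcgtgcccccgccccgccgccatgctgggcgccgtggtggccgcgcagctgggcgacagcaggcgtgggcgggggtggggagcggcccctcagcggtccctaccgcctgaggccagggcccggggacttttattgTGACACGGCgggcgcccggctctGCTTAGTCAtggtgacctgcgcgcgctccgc
GCLM holds TGACTAAGC on the opposite strand, 34 to 26 bases before its start, and KEAP1 holds the same 9 letters, also on the opposite strand, 31 to 23 bases before the start shown. The KEAP1 window also has TGACACGGC at 54 to 46 bases and, on the opposite strand, TGAGCGCGC at 203 to 195. TXNRD1 has TGACTTCGC 99 to 91 bases before its upstream start. Before its downstream start it has TGACAAAGC on the opposite strand, at 102 to 94 bases, and TGAGCAGGC at 198 to 190. OSGIN1 has TGAGTCAGC on the opposite strand, 99 to 91 bases before its start, within which the AP-1 letters TGACTCA lie on the strand shown. In the NQO1 window the sole match was TGAGGCTGC on the opposite strand, 119 to 111 bases before the start. TGACNNNGC was in 4 of the 11 windows, from 3 genes, and in 10.9% of all 35116 windows. TGAGNNNGC was in 5 of the 11, from 5 genes, and in 14.8% of all, and TGACTCA was in 1 of the 11 and in 4.2% of all. NFE2L2 had TGAGNNNGC only, in 1 of its 2 windows, while GCLC and SRXN1 had no match. A match describes the letters of these windows and not binding, and the counts do not show which start was used. Positions outside these 250 bases were not searched, so a gene with no match here may still have one elsewhere.

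In WT cells given the inhibitor, none of the 10 genes was called by edgeR (4 had an unadjusted p under 0.05). DESeq2 called 1 and limma-voom 0, while edgeR called 4.86% of all genes, 2.33% as higher and 2.53% as lower. The libraries of the 2 treatments did not overlap for 3 of the 10 genes, 1 higher and 2 lower, against 10.7% and 11.6% of all genes, 22.3% together. The median log2 change of the 10 was 0.05, against -0.0031 over all genes, and 5 changes were positive.

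NFE2L2 stood at 94.2, 104.0 and 118.9 CPM in WT cells with WM1119, against 147.9, 107.9 and 117.8 CPM with vehicle, a log2 change of -0.24 (SE 0.16, adjusted p = 0.412 in edgeR). KEAP1 stood at 66.6, 56.5 and 62.8 CPM against 55.8, 54.9 and 55.3 CPM, a log2 change of 0.16 (SE 0.13, adjusted p = 0.521 in edgeR). The first gene overlapped between treatments and the second did not, though by a small margin.

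NQO1 stood at 216.4, 216.0 and 145.7 CPM in WT cells with WM1119, against 132.8, 164.3 and 156.0 CPM with vehicle. The first 2 treated libraries were above all vehicle libraries and WT WM1119 library 3 was not. The log2 change was 0.36 (SE 0.16, adjusted p = 0.22 in edgeR) with that library and 0.52 (adjusted p = 0.023) without it. GCLM stood at 34.1, 51.6 and 62.8 CPM with WM1119, against 44.2, 39.8 and 37.6 CPM with vehicle, and GCLC at 15.4, 20.6 and 23.5 CPM against 22.8, 19.6 and 20.9 CPM. Treated libraries lay on both sides of the vehicle libraries for both genes, and without WT WM1119 library 3 the log2 change of GCLM was 0.08 (adjusted p = 0.862 in edgeR), against 0.27 with it, and that of GCLC was -0.23, against -0.10 with it. OSGIN1 likewise overlapped, at 5.71, 8.48 and 9.50 CPM against 10.9, 7.05 and 6.59 CPM, with a log2 change of -0.07 (SE 0.36, adjusted p = 0.932 in edgeR).

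TXNRD1 stood at 191.3, 137.9 and 181.7 CPM in WT cells with WM1119, against 251.2, 206.4 and 212.1 CPM with vehicle, so every treated library was below every vehicle library. The log2 change of -0.39 (SE 0.14) did not pass (adjusted p = 0.136 in edgeR). SRXN1 stood at 42.6, 39.6 and 23.5 CPM with WM1119, against 44.4, 65.0 and 69.1 CPM with vehicle, also without overlap. Its log2 change of -0.74 (SE 0.22) missed the threshold at an edgeR adjusted p of 0.0688, and passed with DESeq2 (0.0286) and with no low-count filter (0.00608). It also passed when WT WM1119 library 1 (0.033) or WT vehicle library 1 (0.0356) was left out, and missed in the other 9 of these 11 fits. Without WT WM1119 library 3, the lowest for SRXN1, its log2 change was -0.53 (adjusted p = 0.101).

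SLC7A11 stood at 219.4, 240.7 and 342.7 CPM in WT cells with WM1119, against 240.7, 218.2 and 240.3 CPM with vehicle. The highest value was that of WT WM1119 library 3; the log2 change was 0.20 (SE 0.15, adjusted p = 0.493 in edgeR) with it and -0.02 without it. PRDX1 stood at 1230, 1320 and 1624 CPM against 1265, 1144 and 1009 CPM, a log2 change of 0.29 (SE 0.13, adjusted p = 0.211 in edgeR), again highest in that library, and 0.16 (adjusted p = 0.419) without it.

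Whether the inhibitor acted differently in the 2 genotypes was tested as an interaction, the log2 change of R183W cells minus the one of WT cells. None of the 10 genes was called by edgeR (6 had an unadjusted p under 0.05), where 0.286% of all genes were, 0.0930% as higher and 0.193% as lower; DESeq2 called 1 and limma-voom 0. The interaction was positive for 8 of the 10 genes, with a median of 0.67, against 49.2% of all genes and a median of -0.0087. TXNRD1 came nearest, at 1.09 (SE 0.22, adjusted p = 0.0605 in edgeR), and passed without WT WM1119 library 1 (0.037) or 3 (0.0107), with no low-count filter (0.00249) and with DESeq2 (0.00153). It missed in 9 of the 11 fits that each left out 1 library. The interaction was 1.53 for OSGIN1 (SE 0.51, adjusted p = 0.32 in edgeR), 0.83 for SRXN1 (SE 0.32, 0.424), 0.67 for NQO1 (SE 0.24, 0.374) and 0.67 for GCLM (SE 0.28, 0.468). For SLC7A11 it was negative, at -0.60 (SE 0.23, adjusted p = 0.421 in edgeR). A larger effect of WM1119 in R183W than in WT cells was therefore not shown for any single gene of the 10 in this fit.

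The lines were next compared with each other under vehicle, which asks how the parental and corrected cells differ before any inhibitor. Genotype and other differences between the lines cannot be told apart here. TXNRD1 and SLC7A11 were lower in R183W than in WT cells, and no gene of the 10 was higher. Over all genes, 13.0% were called, 6.82% as higher and 6.17% as lower. The genotypes did not overlap for 7 of the 10 genes, 2 higher and 5 lower, against 19.3% and 18.5% of all genes, 37.8% together. The median log2 difference of the 10 was -0.39, against -0.0081 over all genes, and 8 of the 10 differences were negative. The R183W vehicle and WT vehicle libraries enter both this comparison and those of the inhibitor, so the differences are not independent of the changes given above.

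TXNRD1 stood at 84.3, 85.0 and 73.0 CPM in R183W vehicle libraries, against 251.2, 206.4 and 212.1 CPM in WT vehicle libraries. It was 2.76-fold lower in R183W cells (log2 -1.47, SE 0.15, adjusted p = 2.26e-05 in edgeR), and the call held with each of the 11 libraries left out in turn (adjusted p up to 0.000401). SLC7A11 stood at 158.2, 148.5 and 167.9 CPM in R183W vehicle libraries, against 240.7, 218.2 and 240.3 CPM in WT vehicle libraries, without overlap. The log2 difference was -0.56 (SE 0.15, adjusted p = 0.0281 in edgeR), and it missed the threshold when any of the 6 vehicle libraries was left out (0.0555 to 0.11).

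NFE2L2 and NQO1 were each lower in all 3 R183W vehicle libraries than in any WT vehicle library, at log2 differences of -0.40 (SE 0.16, adjusted p = 0.113 in edgeR) and -0.41 (SE 0.16, 0.112), which did not pass. GCLM leaned the other way, at 54.1, 56.7 and 54.3 CPM in R183W libraries against 44.2, 39.8 and 37.6 CPM in WT libraries, a log2 difference of 0.44 (SE 0.19, adjusted p = 0.143 in edgeR). Without WT WM1119 library 3, which is in neither group compared, NFE2L2 (0.0499), NQO1 (0.0195), GCLM (0.0392) and PRDX1 (0.0195) also passed, and the count of 2 became 6. Without any 1 of the 6 vehicle libraries it was 1, that of TXNRD1.

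With WM1119 in both lines, GCLM and OSGIN1 were higher and SLC7A11 was lower in R183W than in WT cells, so 3 of the 10 genes were called where 8.56% of all genes were, 4.64% as higher and 3.92% as lower. The genotypes did not overlap for 6 of the 10 genes, 4 higher and 2 lower, against 18.5% and 16.3% of all genes, 34.8% together. GCLM stood at 96.7 and 115.1 CPM in R183W WM1119 libraries, against 34.1, 51.6 and 62.8 CPM in WT WM1119 libraries, a 2.16-fold difference (log2 1.11, SE 0.21, adjusted p = 0.0045 in edgeR). It was lost without R183W WM1119 library 2 (0.066) and in a fit of these 2 groups alone (0.0606). OSGIN1 stood at 16.1 and 24.8 CPM in R183W WM1119 libraries, against 5.71, 8.48 and 9.50 CPM in WT WM1119 libraries, a log2 difference of 1.39 (SE 0.38, adjusted p = 0.0359 in edgeR). That call was lost without WT vehicle library 2 (0.0501), R183W WM1119 library 1 (0.0778) or 2 (0.308) or WT WM1119 library 1 (0.103) or 2 (0.0792), and in the fit of these 2 groups alone (0.0896). Without R183W WM1119 library 2 the count of 3 fell to 1, that of SLC7A11.

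SLC7A11 stood at 118.3 and 120.8 CPM in R183W WM1119 libraries, against 219.4, 240.7 and 342.7 CPM in WT WM1119 libraries, 2.23-fold lower in R183W cells (log2 -1.16, SE 0.18, adjusted p = 0.00122 in edgeR). It held with each library left out in turn (adjusted p up to 0.0235), and without WT WM1119 library 3, the highest, the log2 difference was -0.96. TXNRD1, at 127.2 and 134.4 CPM in R183W WM1119 libraries against 191.3, 137.9 and 181.7 CPM in WT WM1119 libraries, was lower without overlap and did not pass (log2 -0.38, SE 0.16, adjusted p = 0.176 in edgeR). Its 4 groups thus ran in the order R183W vehicle, R183W WM1119, WT WM1119 and WT vehicle, low to high. Of the 3 neighbouring pairs in that order, only the first differed past the threshold. Among the genes not called here, the log2 difference of NQO1 was 0.26 with WT WM1119 library 3 and 0.08 without it, and that of SRXN1 was 0.41 with it and 0.19 without it.

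**Figure D3:**
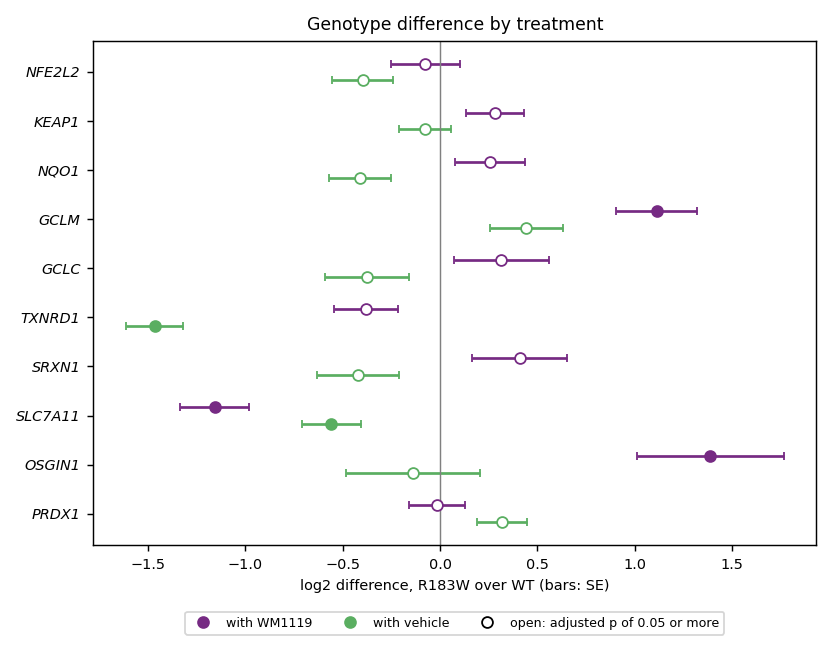
Log2 difference of R183W over WT cells for each of the 10 genes, with SE, with WM1119 (upper point of each pair) and with vehicle (lower point). Filled points were called at an edgeR adjusted p under 0.05: GCLM, OSGIN1 and SLC7A11 with WM1119, and TXNRD1 and SLC7A11 with vehicle.

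Other genes of the pathway were taken from lists. Of 18 further NRF2 targets, 17 were tested. With WM1119, 6 of them rose in R183W cells (median log2 change 0.80) and 3 rose in WT cells (median 0.33), and none fell. Of all genes tested, 1.99% were called higher in R183W cells and 2.33% in WT cells, with median changes of -0.0011 and -0.0031. In R183W cells the largest called rises were those of AKR1C3, an aldo-keto reductase (log2 2.00, SE 0.15, adjusted p = 9.32e-06 in edgeR), FTL, a ferritin subunit (1.24, SE 0.11, 3.38e-05), and UGDH, UDP-glucose dehydrogenase (0.98, SE 0.20, 0.0119). The calls of AKR1C3 and FTL held with each of the 11 libraries left out, and that of UGDH was lost for both R183W WM1119 libraries (0.142 and 0.117) and R183W vehicle libraries 1 (0.0593) and 2 (0.0581). Reads of AKR1C3 may be split with its paralogs, and those of FTL with pseudogenes. HMOX1, heme oxygenase 1, a classical target of NRF2, stood at 7.44 and 9.67 CPM with WM1119 against 6.11, 6.21 and 9.13 CPM with vehicle in R183W cells, with overlap (log2 0.25, SE 0.41, adjusted p = 0.783 in edgeR). The R183W count was 4 without R183W vehicle library 2, 2 when either R183W WM1119 library was left out, and 9 higher and 1 lower without WT WM1119 library 3. The WT count was 2 when WT WM1119 library 2 or WT vehicle library 2 was left out, and 1 without WT vehicle library 3. For R183W cells, the fit without WT WM1119 library 3 called 1600 of 13897 genes, against 649 of 13980 with all libraries.

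In WT cells the called targets were SLC48A1, a heme transporter, AKR1C3 and FTL. SLC48A1 stood at 128.9, 146.2 and 259.3 CPM with WM1119, against 76.3, 86.5 and 59.3 CPM with vehicle (log2 1.26, SE 0.24, adjusted p = 0.00933 in edgeR), a call lost without WT vehicle library 3 (0.0521). In R183W cells it stood at 166.8 and 178.5 CPM with WM1119, against 363.3, 266.2 and 264.6 CPM with vehicle, below all of them (log2 -0.79, SE 0.26, adjusted p = 0.111 in edgeR). Its interaction of -2.05 (SE 0.36, adjusted p = 0.0274 in edgeR) passed. That of FTL, at 0.78 (SE 0.15, 0.0486), passed in the other direction. With 1 library left out, the interaction call of SLC48A1 was lost for 9 of the 11 libraries (adjusted p up to 0.209) and that of FTL for 10 (up to 0.295). The median interaction over the 17 targets was 0.63, and 13 were positive, against a median of -0.0087 and 49.2% positive over all genes.

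Between genotypes, 2 of the 17 targets were higher in R183W cells under vehicle, SLC48A1 (log2 2.01, SE 0.24, adjusted p = 0.000106 in edgeR) and BLVRB, a biliverdin reductase (0.50, SE 0.15, 0.0354), and none was lower. Of all genes, 6.82% were called higher in that comparison. With WM1119, 6 were higher and none lower, where 4.64% of all genes were called higher. They were led by CBR1, a carbonyl reductase (log2 1.41, SE 0.24, adjusted p = 0.00252 in edgeR), ABCB6, a porphyrin transporter (1.00, SE 0.15, 0.00094), and UGDH (0.93, SE 0.20, 0.0103). The CBR1 and ABCB6 calls held with each library left out, and that of UGDH was lost for R183W WM1119 library 1 (0.114) or 2 (0.0772). The vehicle count was 1 without any 1 of the R183W vehicle libraries or WT vehicle library 2 or 3. The WM1119 count fell when either R183W WM1119 library was left out. It was 9 without WT WM1119 library 3, in a fit that called 2895 of 13897 genes, against 1197 of 13980 with all libraries.

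**Figure D4:**
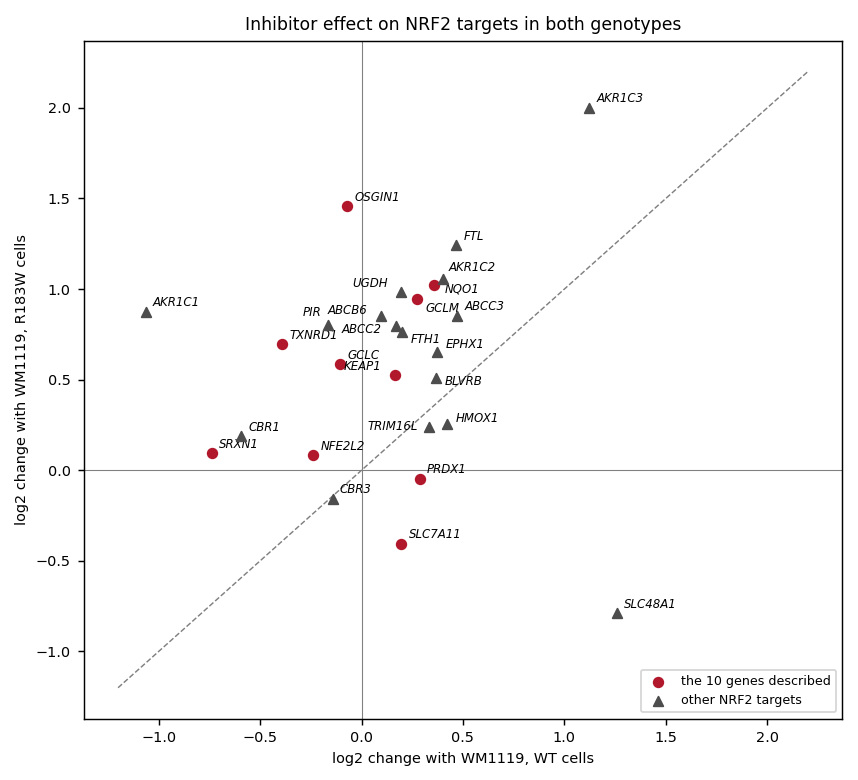
Log2 change with WM1119 in R183W cells (vertical) against that in WT cells (horizontal), for the 10 genes described (circles) and 17 other NRF2 targets (triangles). The dashed line marks equal changes. The 2 axes share no library, and 8 of the 10 genes and 13 of the 17 targets lie above the line.

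Among 10 proteins that control NRF2 or share its DNA site (CUL3, RBX1, SQSTM1, BTRC, GSK3B, MAFF, MAFG, MAFK, BACH1 and NFE2L1), 1 rose and none fell with WM1119 in R183W cells, and none was called in the other comparisons. With WM1119 in R183W cells, 1.99% of all genes were called higher and 2.65% lower. In the other comparisons, in the order given above, 4.86%, 13.0%, 8.56% and 0.286% of all genes were called in either direction. The list gene that rose was SQSTM1, which encodes p62, an autophagy receptor that binds KEAP1 and is itself an NRF2 target. It stood at 936.8 and 998.2 CPM with WM1119, against 669.4, 590.7 and 579.7 CPM with vehicle (log2 0.66, SE 0.15, adjusted p = 0.0236 in edgeR). That rise missed the threshold when R183W WM1119 library 1 (0.134) or 2 (0.205), or R183W vehicle library 2 (0.0999) or 3 (0.103), was left out.

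Of 10 genes of glutathione synthesis and use, 8 were tested. GPX4, which reduces lipid peroxides, rose with WM1119 in both genotypes. It stood at 339.8 and 452.1 CPM in R183W WM1119 against 201.6, 133.1 and 156.3 CPM in R183W vehicle libraries (log2 1.27, SE 0.32, adjusted p = 0.0358 in edgeR). In WT cells it stood at 390.1, 509.1 and 690.3 CPM with WM1119 against 300.1, 217.7 and 116.1 CPM with vehicle (log2 1.33, SE 0.29, 0.0197). Those calls were lost for 7 and for 3 of the 11 libraries left out (adjusted p up to 0.306 and 0.0757). GPX1, the cytosolic glutathione peroxidase, was higher in R183W than in WT cells under vehicle (log2 0.42, SE 0.12, adjusted p = 0.0337 in edgeR; lost for 8 of 11 libraries left out, up to 0.124), and no other gene of the list was called. GSTP1, a glutathione transferase, had 0 counts in each of the 11 libraries; in the shallowest, a level of up to 1.24 CPM would still be possible, counting error only. None of the 8 thioredoxin and peroxiredoxin genes tested, nor SOD1 and CAT, was called in any comparison. Beside these lists and that of ATF4 below, 4.64% and 4.86% of all genes were called with WM1119 in R183W and WT cells. Between genotypes the shares were 13.0% under vehicle and 8.56% with WM1119, and for the interaction 0.286%.

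ATF4 and its targets, which share SLC7A11 with NRF2, were set beside it. With WM1119 in R183W cells, 2 of 8 fell (ASNS and TRIB3) and none rose, with a median of -0.58, where 2.65% of all genes were called lower and their median was -0.0011. ASNS, asparagine synthetase, changed by -1.08 (SE 0.12, adjusted p = 0.000278 in edgeR), and TRIB3, a pseudokinase induced by ATF4, by -0.81 (SE 0.22, 0.0471; lost for 9 of 11 libraries left out, up to 0.299). The ATF4 transcript did not pass, at 0.11 (SE 0.18, adjusted p = 0.793 in edgeR). In WT cells ASNS alone was called, with a change of -0.43 (SE 0.11, adjusted p = 0.0354 in edgeR; lost for 9 of 11, up to 0.1), and the median was 0.02. CHAC1, which degrades glutathione, was higher in R183W than in WT cells under vehicle (log2 0.96, SE 0.24, adjusted p = 0.0179 in edgeR; lost for 3 of 11, up to 0.0993). With WM1119 in both lines, ASNS was lower in R183W cells (-0.42, SE 0.12, adjusted p = 0.045 in edgeR; lost for 7 of 11, up to 0.238). The interaction was negative for all 8 genes and called for none (4 at an unadjusted p under 0.05), with a median of -0.51.

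The 10 genes did not move as a single block across the 11 libraries. In log2 CPM, GCLM and OSGIN1 correlated at Pearson r = 0.81, KEAP1 and OSGIN1 at 0.79 and KEAP1 and NQO1 at 0.70, whereas GCLM and SLC7A11 stood at -0.64 and SRXN1 and PRDX1 at -0.78. NFE2L2 correlated with NQO1 at -0.02 and with TXNRD1 at 0.66. These values describe 11 libraries in 4 groups and share the spread between groups. The genes most like NFE2L2, among 9005 named genes with a mean of at least 5 CPM, were IWS1 (r = 0.90), TMEM184B (0.88), KIF15 (0.87), CCDC174 (0.86) and CCDC144A (0.84). Those most like the mean z score of the 8 targets were KLHDC2 (0.95), KDELR1 (0.93), IREB2 (0.93), LRSAM1 (0.92) and SUCLG1 (0.92).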

How the data were processed

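The authors deposited expected counts per Ensembl gene, all whole numbers; STAR, RSEM and hg19 stand in the submitters' processing notes, without versions, roles or annotation. Per the labels' protocols, RNA was DNase-treated and libraries were made with a ScriptSeq kit. The labels number the replicates without calling them separate cultures, so p-values measure only the spread between these libraries, which may be technical. The values were rounded (no value changed) and 51959 of 57736 IDs were given symbols by ID. Genes were kept with filterByExpr, scaled with TMM and compared by the quasi-likelihood test of edgeR 4.0.16 under R 4.3.3. A single fit held 4 group means and all 11 libraries, with Benjamini-Hochberg adjustment over 13980 genes and calls under 0.05. Intervals are the estimate ± 1.96 SE; a count of 0 was read as at most 3 counts, for counting error only.

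Alternatives were relative log expression factors, no filter, DESeq2 1.42.0, limma-voom (limma 3.58.1), fits of only the groups compared, a replicate block, and leaving out each library. The members and lists were chosen with earlier results of these data known. Named genes were the 10 genes, up to 3 called genes per list and comparison with the largest change, and the 5 most correlated genes; HMOX1, GSTP1, ATF4, SOD1 and CAT were named outside that rule, after their values were seen. PECAM1 and 2 listed genes of the antioxidant groups were not analysed here. The list of NADPH-supplying enzymes is not reported here. Of the 10 genes, 9 overlap another annotated gene. Reads of genes that overlap on opposite strands cannot be told apart unless strand was used, and the sources used here do not say. Strand does not separate genes that overlap on the same strand. Such overlaps with a protein-coding gene include those of TXNRD1 with EID3, OSGIN1 with AC009119.2 and SRXN1 with AL121758.1. Sequences are from RefSeq (GRCh38.p14), a build other than that of the counts, so no coordinates come from the counts.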

Additional observations from a re-analysis of the deposited data

Results flagged for a closer look

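TXNRD1 was picked out because its libraries moved in opposite directions with WM1119: both R183W WM1119 libraries were above every R183W vehicle library, and all 3 WT WM1119 libraries were below every WT vehicle library. The difference between the 2 effects, R183W less WT, was 1.09 on the log2 scale. It was tested as an interaction and missed the threshold at an edgeR adjusted p of 0.0605, with 0.0107 to 0.326 over the 11 fits that each left out 1 library.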

How the results depend on the processing

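The numbers of the 10 genes called moved with the fit. With WM1119 in R183W cells the count was 4, 5 with DESeq2, 6 in a fit of only the groups compared, and 1 with the replicate block, where GCLM (edgeR adjusted p = 0.0526), TXNRD1 (0.0783) and OSGIN1 (0.118) were lost; leaving out 1 library gave 0 to 6. With WM1119 in WT cells it was 0, and 1 with no low-count filter or with DESeq2, and 0 to 1 with 1 library left out. R183W against WT under vehicle gave 2, and 5 in a fit of only the groups compared, and 1 to 6 with 1 library left out. R183W against WT under WM1119 gave 3, and 1 in a fit of only the groups compared, 2 with the block, and 1 to 3 with 1 library left out. The interaction gave 0, and 1 with no filter or with DESeq2, and 0 to 1 with 1 library left out. Signs turned only among uncalled values, when 1 library was left out. With WM1119 in R183W cells the log2 change of NFE2L2 ran from -0.0883 to 0.209. In WT cells that of OSGIN1 ran from -0.207 to 0.167, of GCLC from -0.233 to 0.0576 and of SLC7A11 from -0.0166 to 0.320. Under vehicle the R183W difference of OSGIN1 ran from -0.548 to 0.121, and under WM1119 that of PRDX1 from -0.0977 to 0.0942 and of NFE2L2 from -0.241 to 0.0625. Same-numbered libraries had correlations of deviations from -0.324 to 0.11, so the numbers were not taken as pairs. Of all genes, the block called 261, 287, 1189, 678 and 0, against 649, 680, 1817, 1197 and 40 without it, in the order of comparisons above. DESeq2 called 975, 1086, 2174, 1510 and 157 of 13980, and edgeR with no filter called 1110, 1287, 2380, 1783 and 191 of 23410. Fits of only the groups compared called 2406 of 13215, 139 of 12744, 2929 of 13068 and 319 of 12820 in that order. The low counts of OSGIN1 and the 2 R183W WM1119 libraries limit the precision. The causes of these shifts were not tested.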
